A study of Mus musculus with 12 samples.

Results

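The thymines at positions 27 to 32 of mouse transfer RNAs (tRNAs), which stand for uridines of the RNA, were examined for stops of reverse transcriptase that depend on CMC. These positions form the 5′ strand of the anticodon stem (27 to 31) and the first base of the anticodon loop (32). Position 34 was set as the first base of the anticodon named in the tRNA entry, provided that a T or C preceded it, and the T bases 7 to 2 bases before it were taken. This placed 364 of the 404 entries. Entries with identical values were counted once, which left 186 distinct tRNAs of 213 and 301 T bases of 3129 T bases in all. The 301 bases lie in 165 tRNAs of 42 anticodons, of which 53 carry 1 such T, 88 carry 2 and 24 carry 3. Positions are those within the tRNA and carry no genome coordinates here.

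The RNA came from hematopoietic stem and progenitor cells, from which blood cells arise, of young and old mice. All 12 libraries are of wild-type genotype, the ages are given only as young and old, and all small RNA was treated with wild-type and mutant AlkB, which strip methyl groups that would halt the transcriptase. At each age 3 libraries were treated with CMC, a carbodiimide that remains bound to pseudouridine after alkaline treatment, and 3 received the BEU buffer without CMC. The labels do not say whether replicates came from separate animals, so a p-value reflects variation among libraries that may be technical. Only tRNA was tabulated, so no marker of the cell type could be checked.

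Pseudouridine is an isomer of uridine made by pseudouridine synthases. It adds rigidity to the RNA backbone, and its base has a further hydrogen bond donor. In the anticodon stem and loop, PUS1 is known for positions 27 and 28 and PUS3 for 38 and 39 on the 3′ side. In yeast Pus6 modifies position 31 and Pus8 and Pus9 position 32. PUS10, the synthase in the title of the study, is known for the T loop, outside the bases described here. Bases 27 to 31 pair with bases 43 to 39, and bases 32 and 38 face each other across the loop.

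The sequences below run from position 26 to 44, 5′ to 3′, with each T at positions 27 to 32 in capitals, and are read from the deposited rows. They were chosen because the results turn on them: the leading T of each position, and tRNAs of like sequence whose stops differed.
tRNA-Trp-CCA-6-1: gTcTgactccagatcagaa
tRNA-Trp-CCA-2-1: gTcTgactccagatcagaa
tRNA-Asn-GTT-1-1: gTTcggctgttaaccgaaa
tRNA-Val-AAC-1-1: gTTcgcctaacacgcgaaa
tRNA-Arg-CCT-3-1: aTTggcctcctaagccagg
tRNA-Cys-GCA-8-1: aTTTgactgcagatcaaga
tRNA-Ile-AAT-3-1: gTggTgctaataacgccaa
tRNA-Met-CAT-1-1: gTcagTctcataatctgaa
tRNA-Thr-CGT-1-1: gTcggTctcgtaaaccgaa
tRNA-Gln-CTG-4-1: tcTggactctgaatccagc
tRNA-iMet-CAT-1-1: gcTgggcccataacccaga
tRNA-Gly-GCC-1-1: tcTcgcctgccacgcggga
tRNA-Glu-TTC-2-1: tccTggTtttcacccaggc
tRNA-His-GTG-2-1: tcTgcgTtgtggccgcagc
tRNA-Val-TAC-1-1: gTcTgcTttacacgcagaa
tRNA-Ala-AGC-4-1: gcTcgcTtagcatgcgaga

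The stop rate is the percent of reads over a base that ended there, and the rise is the CMC minus the BEU stop rate of the libraries that share an age and a number, in percentage points. This gave 3 pairs per age. Of the 301 bases, 224 had coverage of at least 20 reads in all 12 libraries and were tested, and the other 77 had a lowest coverage between 2 and 19. Median coverage of the tested bases was 1353.5 to 6158 reads in the BEU libraries and 72 to 571 in the CMC libraries, so the CMC libraries limit the precision. Coverage never exceeded 8015 reads, and stops near that ceiling are hardly recorded. The ceiling, marked at 7500 reads, touched 0 to 91 of the 224 bases per library, most often in BEU, and 130 bases stayed below it in every library. A base was called where edgeR's quasi-likelihood test gave a Benjamini-Hochberg adjusted p under 0.05 over all T sites, the mean rise was at least 10 points and all 3 pairs rose.

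CMC-dependent stops were frequent at positions 27 to 32, and most lay at positions 27 and 28. Of the 224 bases, 98 were called in young cells and 94 in old cells, where 18.8% and 20.1% of all 2189 tested T sites were called. Calls in both ages numbered 91, in 25 anticodons, against 18% of all T sites. Among the 130 bases below the ceiling, 51 were called in young and 53 in old cells, beside 17.8% and 19.7% of the T sites below it. The 91 bases called in both ages had mean rises from 12.4 to 66.0 points, with a median of 28.5 in young and 32.2 in old cells, and the 123 called in neither age lay between −2.25 and 8.19. Just inside the minimum rise, T27 of Cys-GCA-2-1 rose by 13.96 points in young cells and had a mean of 9.09 in old cells. Just outside it, T27 of Trp-CCA-4-1 had means of 6.75 and 9.37.

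**Figure D1:**
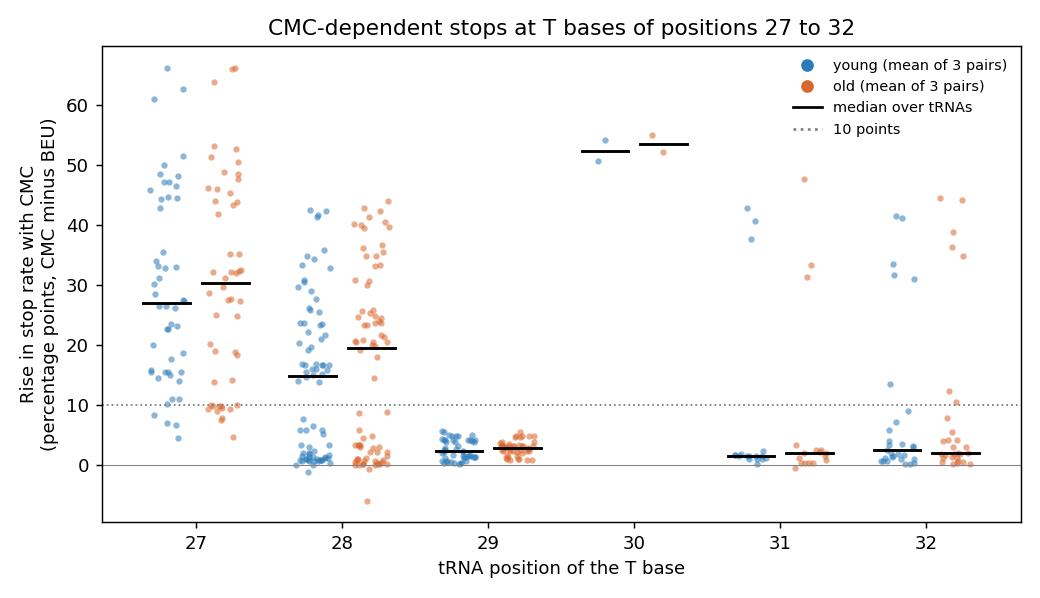
Rise in stop rate with CMC (percentage points, vertical) for each of the 224 tested T bases at positions 27 to 32 (horizontal), with young cells in blue, old cells in orange, each point the mean of 3 pairs, and black bars for medians over tRNAs. Position 27 is spread from 4.6 to 66.0 points, position 28 splits around 10 points, position 29 stays below the dotted line at 10 points, and positions 31 and 32 each have a few high bases over many low ones.

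The 6 positions differed widely. At position 27, which pairs with base 43 next to the variable region, 45 of 50 tested bases were called in young and 40 in old cells, 38 of them in both. At position 28 the 42 calls of 78 bases were the same bases in both ages. At position 29 none of 48 bases was called. Still, 10 in young and 23 in old cells were higher with CMC by under 10 points (edgeR's quasi-likelihood test, adjusted p under 0.05). The shares of all T sites given above require a rise of at least 10 points, so they are no measure for these counts. No share of all T sites without that minimum is given here, so the counts do not set position 29 apart. T29 had median rises of 2.35 (young) and 2.93 (old) points, beside 1.75 (young) and 2.25 (old) for all T sites. Position 30 held 2 tested bases, both called in both ages, position 31 had 3 of 17 called in both, and position 32 had 6 of 29 in young and 7 in old cells. Below the ceiling the calls in young cells were 24 of 29 at position 27, 22 of 43 at 28, 0 of 30 at 29, 3 of 13 at 31 and 2 of 15 at 32, and no tested base of position 30 lay below it.

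The mean rise over tested bases in the 3 young pairs was 29.5, 28.6 and 30.2 points at position 27, and in the old pairs 32.1, 30.7 and 28.6. At position 28 the young pairs gave 13.2, 13.7 and 15.2 points and the old pairs 17.5, 16.4 and 15.2. At position 29 the means were 2.60 ± 0.964 points in young cells and 2.87 ± 0.330 in old ones (SD, n = 3). The order from 27 through 28 to 29 held in all 6 pairs, with no overlap between these positions. Position 31 averaged 8.32 ± 0.392 and 7.75 ± 1.79 points, and position 32 averaged 8.59 ± 0.705 and 9.35 ± 1.27 (SD, n = 3). Position 30 was the highest, at 52.3 ± 1.11 and 53.5 ± 2.51 points (SD, n = 3), but it rests on 2 near-identical Ile-AAT tRNAs.

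**Figure D2:**
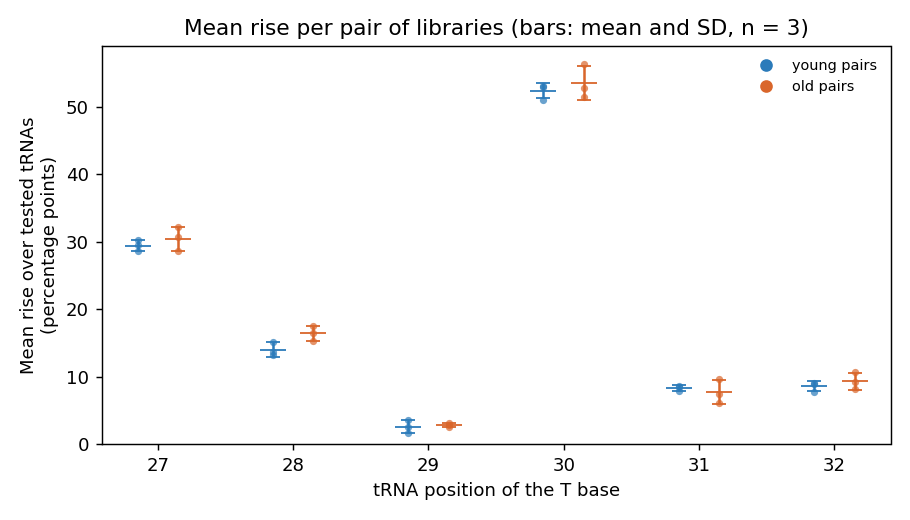
Mean rise over the tested T bases of a position (percentage points, vertical) by tRNA position (horizontal), with 1 point per pair of libraries, young in blue and old in orange, and bars for mean and SD (n = 3). Position 27 lies near 30 points, 28 between 13.2 and 17.5, and 29 below 4. The pairs of the ages overlap at every position except 28, where all young pairs lie below all old ones. There the highest young pair, at 15.20 points, almost meets the lowest old pair, at 15.24.

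Differences between positions were taken within each of the 6 pairs and tested with a two-sided exact sign-flip permutation test, whose smallest p is 0.031, adjusted over 10 comparisons. Position 27 exceeded position 28 by 14.7 ± 0.984 points (SD, n = 6 pairs, higher in 6 of 6, exact permutation adjusted p = 0.0347). Position 28 exceeded position 29 by 12.5 ± 1.51 points (SD, n = 6 pairs, 6 of 6, exact permutation adjusted p = 0.0347). In all, 9 of the 10 comparisons reached that p. Positions 31 and 32 differed by 0.938 points, with 31 lower in 5 of 6 pairs, which did not pass (exact permutation adjusted p = 0.0938). The comparisons with position 31 rest on its 3 Met-CAT bases, whose lowest coverage was 28 to 37 reads. With a minimum of 50 reads these drop out, position 31 falls to 1.26 points, and position 29 is then higher than 31 by 1.23.

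Where a tRNA carried T at more than 1 of the positions, they could be compared within the same molecule. In 23 tRNAs with T at both 27 and 28 the mean rise was 31.3 points at 27 and 25.1 at 28, a difference of 6.14 ± 3.28 points (SD, n = 6 pairs, 6 of 6, exact permutation adjusted p = 0.0357 over 8 comparisons). The mean does not describe the single tRNAs, since T27 was the higher in only 10 of the 23. In 13 of them both bases were called in both ages, and in 4, all Val, T27 was called and T28 was called in neither. T27 exceeded T29 in 28 of 28 tRNAs, by 21.8 ± 2.39 points (SD, n = 6 pairs, exact permutation adjusted p = 0.0357). In 7 tRNAs with T at 29 and 32, T32 was higher on average by 16.1 points (6 of 6 pairs, exact permutation adjusted p = 0.0357), carried by Glu-TTC and Val-TAC, the only ones of the 7 in which T32 was called. Positions 28 and 32 kept no common order: over all tested bases 28 was the higher by 6.24 points, but in 19 tRNAs with T at both, T28 was lower than T32 by 3.24 points (6 of 6 pairs, exact permutation adjusted p = 0.0357).

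Position 27 was stopped in nearly every anticodon tested, 16 of 17 having a tRNA called in both ages. The highest T27 over the 6 pairs was that of Trp-CCA-6-1, with BEU stop rates of 6.13%, 7.83% and 5.26% in young and 5.30%, 6.67% and 5.06% in old cells. Its CMC stop rates were 73.0%, 72.7% and 72.0% in young and 73.0%, 79.2% and 62.7% in old cells. The groups did not overlap, and the rise was 66.2 ± 1.09 and 65.9 ± 7.60 points (SD, n = 3), at a lowest coverage of 24 reads.

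T27 of Ile-AAT-3-1 rose from BEU rates of 7.53% to 9.16% over both ages to CMC rates of 68.6%, 72.2% and 70.4% in young and 71.6%, 77.6% and 74.4% in old cells. Its rises, of which the old one exceeded that of Trp-CCA-6-1, were 62.6 ± 1.96 and 66.1 ± 3.40 points (SD, n = 3, adjusted p = 5.79e-08 and 4.72e-08, edgeR's quasi-likelihood test). T27 of Val-AAC-5-1 followed with 60.9 ± 4.0 and 63.8 ± 3.22 points, Val-CAC-4-1 with 51.4 ± 3.06 and 52.6 ± 1.68, and Arg-TCG-2-1 with 47.1 ± 4.69 and 48.5 ± 8.91 (SD, n = 3). Anticodons formed a continuous series at this position, in which each one overlapped the next over the 6 pairs, from Ile-AAT at 57.6 points down to Lys-CTT at 14.2. The best covered called T27, in Val-CAC-2-1, had rises of 48.7, 48.2 and 53.0 points in young pairs and 53.2, 50.9 and 49.9 in old ones. The rises of 53.0 and 53.2 come from the 2 pairs whose BEU library was at the ceiling, where stops are hardly recorded. The BEU rates there were 0.188% and 0.189%, beside 2.44% to 2.84% in the other BEU libraries.

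Trp-CCA-6-1 stood apart from the other 5 tested Trp-CCA tRNAs, which share its bases 27 to 43. T27 of Trp-CCA-2-1 rose by 8.30 ± 1.12 and 7.49 ± 0.562 points (SD, n = 3), below the minimum of a call, at a lowest coverage of 161 reads. The other 4 lay between 6.75 and 10.97 points in young cells and between 9.37 and 14.1 in old ones. Sets of tRNAs that share an anticodon and bases 27 to 43 were compared at each position, which gave 56 comparisons. The range of the rise within a set had a median of 1.65 points over these comparisons. That of Trp-CCA at position 27, 58.1 points, was the highest. Many of the 56 are at bases with low rises, which leave little room for a range, such as 0.00105 points at T29 of Glu-TTC. Ranges over 20 points also occurred for Ser-AGA, Ser-GCT and Cys-GCA at position 28 and for Cys-GCA and Lys-CTT at position 27. The other sets at position 27 ranged by 13.5 points in Ile-AAT, 13.1 in Val-AAC, 13.0 in Arg-ACG and 8.62 in Arg-CCG. They ranged by 2.11 points or less in Asn-GTT, Arg-TCG, Val-CAC, Thr-CGT and Arg-CCT. How reads were divided among near-identical tRNAs is not stated, so values of such copies are uncertain.

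**Figure D3:**
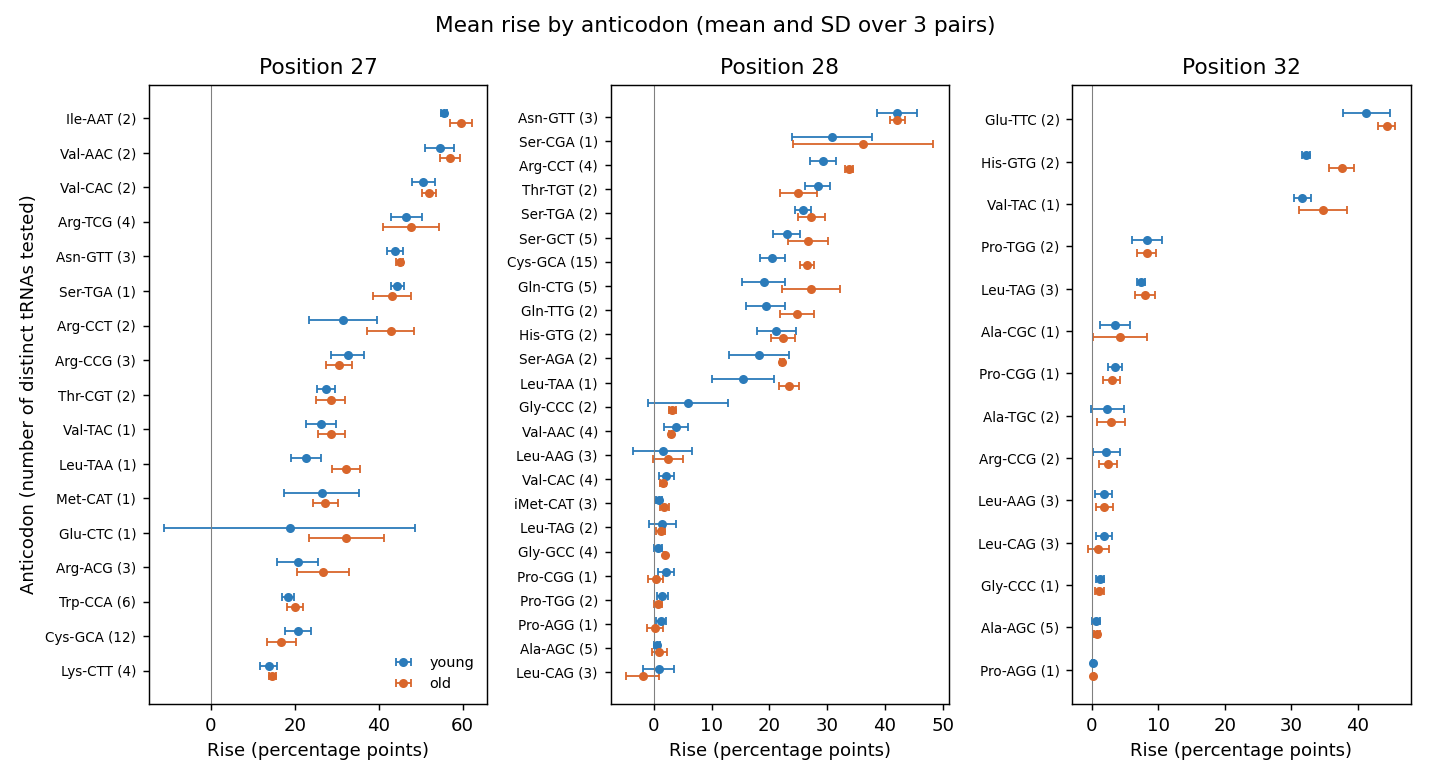
Mean rise (percentage points, horizontal) per anticodon with the number of distinct tRNAs in brackets, at positions 27, 28 and 32, as mean and SD over 3 pairs for young (blue) and old (orange) cells. At position 27 all anticodon means are above 10 points, although that of Trp-CCA joins tRNAs from 7.89 to 66.0 points. At position 28 the means of the 12 anticodons down to Leu-TAA lie above 15 points and those of the other 12 below 6, although single pairs of Leu-TAA and Gly-CCC overlap. At position 32 only Glu-TTC, His-GTG and Val-TAC lie above 30.

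At position 28 the anticodons divided evenly by calls: 12 of 24 had a tRNA called in both ages and 12 had none. The rises themselves left no gap, since each anticodon again overlapped the next over the 6 pairs. At the divide, the pairs of Leu-TAA ranged from 10.3 to 25.1 points and those of Gly-CCC, without a call, from 0.717 to 13.8. T28 of Asn-GTT-1-1 had BEU rates of 0.449%, 0.715% and 0.563% in young and 0.025%, 0.640% and 0.422% in old cells, and CMC rates of 39.1%, 45.3% and 44.9% in young and 43.8%, 43.7% and 41.7% in old cells. The BEU rate of 0.025% came from the 1 library in which this base was at the ceiling. The rise of this T28 was 42.5 ± 3.35 and 42.7 ± 1.25 points (SD, n = 3, adjusted p = 4.32e-05 and 1.91e-05, edgeR's quasi-likelihood test). Arg-CCT-3-1 had 41.7 ± 3.65 and 43.9 ± 3.89 points, Ser-TGA-1-1 35.8 ± 1.72 and 39.99 ± 5.2, Cys-GCA-8-1 34.8 ± 4.20 and 40.5 ± 6.05, and Ser-CGA-1-1 30.9 ± 6.86 and 36.2 ± 12.1 (SD, n = 3). The anticodons with calls carry Asn, Arg, Cys, Gln, His, Leu, Ser or Thr. Those without a call carry Ala, Gly, Pro, Val, initiator Met or Leu, and Leu is in both sets, through Leu-TAA in the first and Leu-AAG, Leu-CAG and Leu-TAG in the second.

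The 36 bases of position 28 called in neither age had a lowest coverage from 21 to 2318 reads, with a median of 101, and 21 of them were below the ceiling in every library. T28 of Gly-GCC-2-1, the best covered of them, had CMC stop rates of 1.15%, 0.352% and 2.03% in young and 2.67%, 2.32% and 2.47% in old cells. It was at the ceiling in 7 libraries, where stops are hardly recorded. T28 of the initiator tRNA iMet-CAT-1-1 had CMC rates of 0.254% to 1.90% at a lowest coverage of 1421 reads and was at the ceiling in 5 libraries.

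Asn-GTT-1-1 and Val-AAC-1-1 share bases 26 to 30. T27 rose in both, by 44.7 ± 2.05 and 46.1 ± 1.05 points in Asn and by 48.1 ± 2.92 and 50.4 ± 1.99 in Val (SD, n = 3). At T28 the CMC rates of Val-AAC-1-1 were 5.25%, 4.77% and 6.73% in young and 5.34%, 5.08% and 4.77% in old cells, and its rise was 5.29 ± 1.15 and 4.81 ± 0.283 points (SD, n = 3). The lowest CMC rate of Asn-GTT-1-1 at T28 was 39.1%, so no library of one tRNA approached those of the other at this T, although the bases around it are the same.

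**Figure D4:**
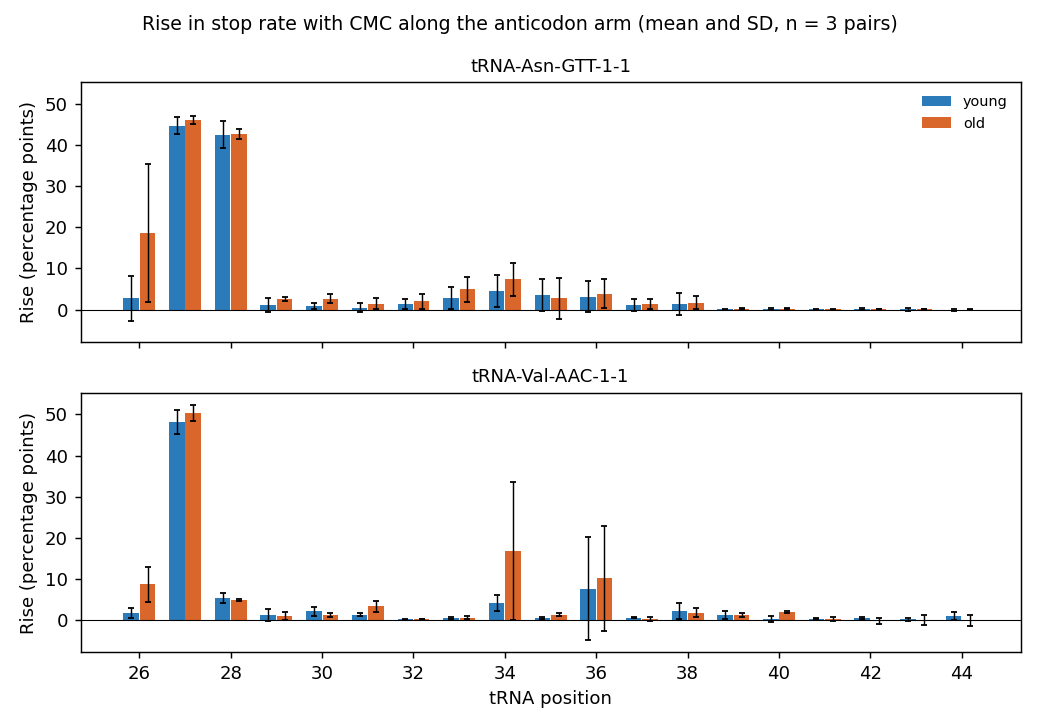
Rise in stop rate with CMC (percentage points, vertical) at positions 26 to 44 (horizontal) of tRNA-Asn-GTT-1-1 (top) and tRNA-Val-AAC-1-1 (bottom), as mean and SD over 3 pairs, young in blue and old in orange. Both tRNAs have high bars at position 27, 44.7 and 48.1 points in young cells, but only the Asn tRNA has one at position 28, 42.5 against 5.29 points.

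The bases around T28 were tabulated after the values were seen, as a description. None of 19 bases preceded by C27 and followed by C29 was called (Ala, Gly, Pro and some Val tRNAs). In these Val tRNAs C27, the base just before T28, was itself called in both ages. C27 rose by 36.1 ± 11.6 and 44.6 ± 13.9 points in Val-CAC-1-1 (SD, n = 3). In Val-AAC-2-1 it rose by 14.3 ± 10.2 and 17.3 ± 4.78 points (SD, n = 3). All 15 bases between T27 and T29 were called, all of them Cys-GCA. Of 24 bases between C27 and G29, 13 were called. With T at position 26 this group held Gln-CTG, Gln-TTG and His-GTG, all 9 called, and with G at 26 it held initiator Met and Leu, none of 10 called. With A at 26 it held Arg-CCT, Leu-CAG and Thr-TGT, 4 of 5 called. Gln-CTG-4-1 and iMet-CAT-1-1, which share bases 27 to 30, had rises at T28 of 23.7 ± 2.75 and 0.377 ± 0.711 points in young cells (SD, n = 3). tRNAs of like context often belong to 1 amino acid, so context and tRNA identity cannot be told apart.

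The partner of the T across the stem was a further feature. At position 27, 34 bases opposite A43 averaged 33.5 points and 16 opposite G43 averaged 22.4, a difference of 11.1 ± 3.07 points (SD, n = 6 pairs, 6 of 6, exact permutation adjusted p = 0.031, the smallest possible). Of the 16, 12 are Cys-GCA, and the rest are Arg-CCG, Arg-CCT and Glu-CTC. The difference at position 27 rested on the Cys-GCA tRNAs: the other 4 bases opposite G43 averaged 33.2 points, and without Cys-GCA the difference was 0.286 ± 4.69 points (SD, n = 6 pairs, 4 of 6, exact permutation adjusted p = 0.844). Below the ceiling it was 3.85 points. At position 28, 71 bases opposite A42 averaged 16.5 points and 6 opposite G42 averaged 2.40, a difference of 14.1 ± 2.11 points (SD, n = 6 pairs, 6 of 6, exact permutation adjusted p = 0.031). Without Cys-GCA it was 12.2 points (6 of 6, exact permutation p = 0.031, adjusted p = 0.0625). Those 6 are all Gly-CCC or Gly-GCC, and 29 of the 71 opposite A were not called either. The 4 Gly-GCC bases averaged 1.33 points and were at the ceiling in up to 7 libraries, where stops are hardly recorded. The 2 Gly-CCC bases stayed below it and averaged 4.55 points. No difference below the ceiling is given for position 28. All 48 tested bases of position 29 faced A41, and both bases of position 30 faced G40.

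T29 had low rises throughout. It lies in 12 anticodons, whose mean rises spanned 1.02 points in Trp-CCA to 4.12 in Cys-GCA, each overlapping the next over the 6 pairs. The best covered, in Gly-TCC-1-1, had BEU rates of 1.66%, 1.58% and 0.632% in young and 0.632%, 1.43% and 1.82% in old cells. Its CMC rates were 2.95%, 2.36% and 2.56% in young and 3.93%, 2.26% and 3.66% in old cells, and in each pair the CMC rate was the higher. This base was at the ceiling in 3 BEU libraries, among them the 2 with BEU rates of 0.632%. Their pairs had the largest rise of each age, 1.93 points in young and 3.29 in old cells. In Cys-GCA-8-1, whose stem opens with 3 T bases in a row, the young rises were 33.2 ± 2.71 points at T27, 34.8 ± 4.20 at T28 and 4.99 ± 2.25 at T29 (SD, n = 3).

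T30 of Ile-AAT was among the strongest stops of the stem. In Ile-AAT-3-1 the BEU rates were 5.18%, 5.46% and 5.41% in young and 5.88%, 5.25% and 5.43% in old cells, and the CMC rates 59.3%, 58.9% and 60.0% in young and 59.3%, 63.2% and 58.7% in old cells. The rise was 54.1 ± 0.596 and 54.9 ± 2.65 points (SD, n = 3, adjusted p = 5.34e-08 and 3.87e-08, edgeR's quasi-likelihood test). Ile-AAT-1-1 had 50.6 ± 1.68 and 52.1 ± 2.58 points (SD, n = 3). The same tRNAs are also the highest of all anticodons at position 27, so each carries a pair of strong stops separated by GG.

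At position 31 the elongator Met-CAT and the Thr tRNAs parted. T31 of Met-CAT-1-1 had CMC rates of 49.4%, 53.0% and 32.4% in young and 51.3%, 47.0% and 50.7% in old cells over BEU rates of 1.35% to 2.71%, and rose by 42.9 ± 11.1 and 47.6 ± 2.24 points (SD, n = 3). All 3 tested Met-CAT bases were called in both ages, with mean rises from 34.5 to 45.2 points. The 14 Thr bases (AGT, CGT and TGT) had mean rises from 0.709 to 2.50 points and none was called. In the best covered, Thr-TGT-3-1, CMC rates were 1.39% to 5.23%. The 3 Met bases face T39 and the 14 Thr bases face A39, so that Met-CAT has a T-T mismatch there. T39 of the Met tRNAs, the opposite base, rose as well, by 37.9 ± 1.47 and 34.1 ± 5.45 points in Met-CAT-1-1 (SD, n = 3).

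At T32, which lies in the loop, 4 of 14 anticodons had a tRNA called in both ages. Glu-TTC-2-1 had BEU rates of 0.997%, 1.19% and 0.940% in young and 0.288%, 0.598% and 1.09% in old cells. Its CMC rates were 46.1%, 40.4% and 40.9% in young and 44.2%, 46.7% and 44.5% in old cells, and the rise was 41.4 ± 3.20 and 44.5 ± 1.4 points (SD, n = 3). His-GTG-3-1 rose by 33.4 ± 0.532 and 38.8 ± 1.64 points and Val-TAC-1-1 by 31.7 ± 1.29 and 34.8 ± 3.58 (SD, n = 3). The His tRNA was at the ceiling in all 6 BEU libraries, where its BEU rate is listed at 0.025%. Pro-TGG-1-1 was lower, at 13.5 ± 4.19 and 12.3 ± 2.55 points (SD, n = 3).

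The calls at T32 were also compared by the base at position 38, across the loop, which divided them only in part. Of 11 opposite C, 5 were called in young and 6 in old cells, with mean rises of 18.8 and 20.8 points, and these called tRNAs were Glu-TTC, His-GTG and Val-TAC in both ages and Leu-TAG-2-1 in old cells alone. Of 16 opposite T, 1 was called, with mean rises of 2.41 and 2.36 points, and neither of the 2 opposite A was called. The Leu-AAG and Leu-TAG tRNAs, also opposite C, had mean rises of only 1.65 to 2.02 and 5.75 to 9.86 points. This partial split was seen in the values and has no test, and base 38 and tRNA identity cannot be told apart. The Ala-AGC tRNAs, opposite T38, included the low T32 of Ala-AGC-4-1, at CMC rates of 0.156% to 0.503%.

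The same positions with another base gave the background of CMC at non-T bases. Of 599 tested A, C and G bases at positions 27 to 32, 9 were called in young and 11 in old cells, where 0.368% and 0.61% of all A, C and G sites were called. All lay directly 5′ of a T: C27 of Val-CAC, Val-AAC and Arg-CCT tRNAs and A31 of Leu-TAG and Leu-AAG tRNAs. The highest was C27 of Val-CAC-1-1 at 36.1 ± 11.6 and 44.6 ± 13.9 points (SD, n = 3). In Leu-TAG-2-1, A31 rose by 18.9 ± 4.73 points in young cells and T32 had 9.12 ± 1.65 (SD, n = 3), so the base before the T was the higher.

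Between the ages, no base of the 5′ stem strand was called different. An age difference was tested at 98 of the bases, those with a rise of at least 10 points averaged over the 6 pairs. None was called by edgeR's quasi-likelihood test (smallest Benjamini-Hochberg adjusted p = 0.950), as at all 439 T sites so tested, where 0% were called. At an unadjusted p under 0.05 there were 3, where 4.78% of the 439 sites reached it, and limma on log odds called none. With limma on the stop rates 2 were called: T28 of Cys-GCA-12-1, at 14.7 ± 0.775 points in young and 23.7 ± 2.19 in old cells (adjusted p = 0.0264, limma), and T32 of His-GTG-3-1, at 33.4 ± 0.532 and 38.8 ± 1.64 (adjusted p = 0.0422, limma; SD, n = 3). T28 of Cys-GCA-12-1 had a lowest coverage of 20 reads.

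The direction of the differences was as follows. Of the 98 bases, 73 had the higher mean in old cells, beside 66.1% of the 439 T sites, and the median difference was 3.03 points beside 1.39. In 27 the young and old pairs did not overlap, all with old higher, where 10.9% of the T sites had all old pairs above all young. At position 28, 38 of 42 bases had the higher mean in old cells and 20 did not overlap. At position 27 these counts were 27 and 5 of 45. The contrast in direction rested on Cys-GCA. Without its tRNAs 23 of 27 bases at position 28 and 27 of 33 at position 27 had the higher mean in old cells. The mean differences were then 3.84 and 2.96 points. The contrast in overlap became smaller but remained, with 8 of 27 bases (29.6%) at position 28 and 5 of 33 (15.2%) at position 27 not overlapping.

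The mean rise over the 42 bases of position 28 was 22.7, 24.6 and 25.5 points in young pairs and 30.6, 28.9 and 27.1 in old ones. The groups did not overlap, but 3 against 3 pairs allow no p below the observed 0.1 (two-sided exact permutation test). The stop rate in BEU was 1.00% ± 0.0996 at the young age and 0.920% ± 0.212 at the old age, and in CMC 25.3% ± 1.37 and 29.8% ± 1.51 (SD, n = 3), so the difference lay in the CMC libraries. Cys-GCA supplied 15 of the 42, which are near-identical copies. Without them the 27 other bases gave 26.4 ± 1.56 and 30.2 ± 2.41 points (SD, n = 3, exact permutation p = 0.2), with 8 not overlapping. Over anticodons with a call in both ages, 11 of 12 at position 28 had the higher mean in old cells and 3 did not overlap, and at position 27 these counts were 13 and 2 of 16.

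No comparison of position 28 with other sites passed. Relative to the 341 tested T sites outside positions 27 to 32, position 28 differed by −8.04 points in young and −4.81 in old cells, with overlapping pairs (exact permutation p = 0.4). Relative to position 27 it differed by −9.38, −6.51 and −6.95 points in the young pairs and −4.27, −4.19 and −3.79 in the old pairs, which do not overlap, again at the smallest p of 0.1 (exact permutation test). Without Cys-GCA it differed by −9.52 points in young and −8.64 in old cells, and the pairs overlapped (exact permutation p = 0.2). These comparisons were chosen after the values were seen. Over all tested bases of each position, none of the positions differed between the ages by the exact permutation test (p from 0.1 to 0.7).

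**Figure D5:**
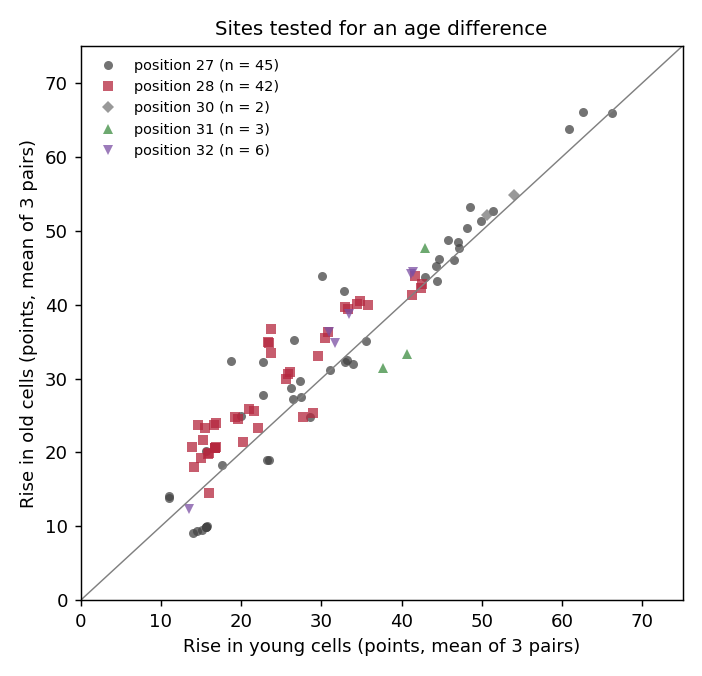
Mean rise in old cells (points, vertical) against young cells (points, horizontal) for the 98 T bases tested for an age difference, each the mean of 3 pairs, with the diagonal marking equal rises. The squares of position 28 lie mostly above the diagonal (38 of 42), while the circles of position 27 lie on both sides of it (27 of 45 above).

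In the Cys-GCA tRNAs the mean of T27 was lower and that of T28 higher in old cells, and no test of their difference was made. Over the 12 tRNAs tested at 27, 28 and 29, T27 averaged 24.4, 19.3 and 18.8 points in young pairs and 20.2, 13.4 and 16.8 in old ones, which overlap. T28 of the same tRNAs averaged 19.3, 24.2 and 22.3 points in young pairs and 29.8, 25.9 and 27.1 in old ones, which do not. The largest single differences at T28 were 12.9 ± 6.80 points in Gln-CTG-5-1, 11.5 ± 3.11 in Cys-GCA-6-1 and 11.3 ± 3.22 in Cys-GCA-10-1 (old minus young, ± SE). At T27 Arg-CCT-4-1 had 13.8 ± 6.58 and Glu-CTC-2-1 13.6 ± 18 (± SE), the latter with a young pair at −14.5 points.

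The lowest differences were −7.38 ± 6.39 and −6.26 ± 6.10 points at T31 of Met-CAT-3-1 and Met-CAT-2-1, and −5.80 ± 4.22 at T27 of Cys-GCA-21-1 (± SE). Of the 7 bases called in young cells alone, 6 were T27 of Cys-GCA tRNAs and the other was T27 of Lys-CTT-4-1. T27 of Cys-GCA-17-1, for example, gave 21.9, 13.6 and 11.3 points in young pairs and 14.1, 5.06 and 10.4 in old ones, which overlap around the minimum of 10 points. The 3 called in old cells alone were T27 of Glu-CTC-2-1 and Trp-CCA-3-1 and T32 of Leu-TAG-2-1. Trp-CCA-3-1, Lys-CTT-4-1 and Leu-TAG-2-1 had too low a mean rise to enter the age test, and the other 7 did not pass it.

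Stops without CMC were low at these bases. In BEU 14 of the 224 had a mean stop rate of at least 5%, the highest being T28 of Leu-CAG-4-1 at 34.2%, where CMC changed the rate by 1.36 points in young and −5.86 in old cells. None of the 14 differed between the ages in BEU by edgeR's quasi-likelihood test (0 at an unadjusted p under 0.05), where 0% of the 394 T sites so tested did. Of the called bases, 95 had a BEU rate under 5%.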

How the data were processed

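The authors deposited 6 tables, 1 per age and replicate number, each with a BEU and a CMC library and 28302 rows. Per the file headers, a row gives coverage (a read count per base), stop reads and the stop rate in percent. Bowtie2 2.3.5, Bowtie and mm10 are named, without roles, per the submitters' processing notes. The sources used here do not give how stops were defined or how reads shared by copies were handled. The members and lists were chosen with earlier results of these data known.

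Stop and read-through counts of all T sites with coverage of at least 20 were fitted with edgeR 4.0.16 in R 4.3.3 (quasi-likelihood test, 1 term per library plus 1 log-odds term per group). Alternatives used limma 3.58.1. Tests were checked on simulated counts. Named bases were, per position, the 5 largest rises called in both ages (1 per anticodon) and the best covered called and uncalled base, and the 5 highest and 5 lowest age differences. Comparisons by neighbouring base, base 38, shared arm and with position 28 were chosen after values were seen. Reads carry no molecular identifiers and are not independent molecules. Errors are SDs over pairs, and SEs of age differences join those of both ages.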

Additional observations from a re-analysis of the deposited data

Results flagged for a closer look

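T31 of tRNA-Thr-AGT-7-1 had rises of 2.54, 0.771 and 2.47 points in the young pairs and −0.694, −0.238 and −0.595 in the old pairs, a difference of −2.44 points, old minus young. It is listed because all young pairs rose with CMC and all old pairs were lower. It was called in neither age and its mean rise was too low for the age test, so the difference was not tested with adjustment.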

How the results depend on the processing

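With all entries counted separately, 249 bases were called in young and 217 in old cells of 499, and below the ceiling 51 and 53 of 130, both from a changed number of bases. With no minimum rise old calls rose to 155, and limma on stop rates called 2 age differences. The mean rise with a coverage minimum of 50 was 17.0 points at position 28, 1.26 at 31 and 13.5 at 32. Position 29 then exceeded 31 by 1.23, and 31 minus 32 became −12.3 (exact permutation p = 0.031 each), as the Met-CAT bases drop out. With a minimum of 10 the mean at 27 was 27.9, and with no filter it was 27.5 and that at 30 was 37.2. With 1 subtracted from stops and coverage, position 29 averaged 1.84. All entries gave 28.1 at 27, 9.98 at 31 and 11.8 at 32. Sites below the ceiling gave 10.2 at 31 and 5.74 at 32, so that 31 exceeded 32 by 4.45, the opposite direction (exact permutation p = 0.031). With the Cys-GCA tRNAs left out, an alternative added after seeing the data, T-A exceeded T-G pairs by 0.286 at 27 (exact permutation adjusted p = 0.844) and 12.2 at 28 (0.0625). Averaging per anticodon first gave 34.1 at 27, 10.8 at 31 and 10.3 at 32.

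Leaving out 1 replicate in turn gave 90 to 112 young calls, 90 to 107 old calls and 0 age calls. The mean at position 27 ranged from 27.7 to 30.2, and its differences ranged from 12.8 to 15.2 over position 28, 24.96 to 27.6 over 29, 20.0 to 22.3 over 31 and 19.1 to 21.4 over 32. The lowest of each came without old replicate 2. With 5 pairs no exact p can fall below 0.0625. Libraries of the same number did not deviate together (correlations from −0.176 to 0.0911), so the edgeR fit has no replicate block, although rises were taken between libraries of 1 number and table. A replicate block gave 98 young, 93 old and 0 age calls. The other main counts and position means stayed within 1.5 times or 1 SD of the reported value. Median CMC coverage of 72 to 571 reads per library limits the precision of every rise.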
